A study of Mus musculus with 14 samples.

Results

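The S-phase and damage checkpoint was followed through 10 transcripts in sorted mouse hair follicle stem cells: the kinases Atm, Atr, Chek1, Chek2 and Wee1, and the mediators Clspn, Timeless, Tipin, Topbp1 and Mdc1. They were listed by name as checkpoint kinases and mediators, and all 10 were measured among 34056 genes with any count and passed the expression filter that left 24592 genes to be tested. Claspin, written as Claspn in the list, is measured under its symbol Clspn. Each gene's level was also set against Mki67 of the same library, the gene of the Ki-67 protein of cycling cells.

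The study compared labelled Irx5KO with labelled WT cells at 2 ages, postnatal days 18 (P18) and 20 (P20), with 3 libraries of each genotype at P18 and 4 at P20. Irx5KO stands for loss of Irx5, which encodes an Iroquois homeodomain transcription factor; the labels do not describe how the allele was made or in which tissues Irx5 is lost, and they name no treatment or Cre line. Cells of trypsin-treated back skin were sorted as positive for CD34 and for CD45f, as the labels spell it, and negative for Ly-6A/E. The labels do not say whether libraries came from separate animals, so each p-value reflects library-to-library spread, part of which may be technical.

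In replication stress, ATR kinase is recruited to single-stranded DNA at stalled forks and is switched on by TopBP1. Claspin, together with the Timeless and Tipin pair that travels with the replisome, then lets ATR activate the effector kinase Chk1, while Wee1 holds back the cyclin-dependent kinases. ATM responds to double-strand breaks, with MDC1 as its scaffold on damaged chromatin and Chk2 as its effector. Hair follicle stem cells of the bulge rest for most of the hair cycle and divide when a new hair grows.

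The targeted gene did not follow its label throughout. Irx5 was at 48.0, 70.6 and 73.4 CPM (counts relative to library size, with sizes scaled to well-expressed genes) in P18 Irx5KO and at 93.9, 110 and 132 CPM in P18 WT (two-sided exact permutation p = 0.1, the smallest that 3 against 3 libraries allow). At P20 it was at 29.99 and 18.1 CPM in labelled Irx5KO libraries 1 and 2 against 108 and 93.6 CPM in WT 1 and 2, but at 181 and 170 CPM in labelled Irx5KO 3 and 4 against 33.3 and 37.6 CPM in WT 3 and 4 (exact permutation p = 0.629 over all 8). Libraries 1 and 2 share one 6-digit code in the deposited data, and libraries 3 and 4 another; what the code marks is not stated. Because Irx5 went against the labels in libraries 3 and 4, every P20 genotype difference is given for each code apart, and "labelled" is meant literally. The library labelled P18 WT 3 also carries the letters het in the deposited data.

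Totals ran from 13618367 to 70083873 estimated counts per library. Olfactory and vomeronasal receptor genes were taken as a sign of counts from outside the cell type. They took 1.80% of counts in P18 WT 1, 5.45% in P18 WT 2 and 2.41% in P20 WT 2, against 0.102% to 0.611% in the other 11 libraries. The bulge markers Cd34 and Itga6 were high everywhere (176 to 846 and 103 to 443 TPM, a level relative to transcript length and depth), and Ly6a, the gene of the excluded antigen, was at 0 to 4.38 TPM. Summed suprabasal epidermis markers stood out in P20 Irx5KO 1, at 3244 TPM against 512 to 1143 TPM in the other 13 libraries. Skeletal muscle and endothelial markers were highest in P18 WT 2, at 44.9 and 49.6 TPM in sum. Y-linked Ddx3y was low (0.123 to 0.589 CPM) in P18 Irx5KO 1, WT 1 and WT 2 and P20 Irx5KO 1 and WT 1. It was at 58.6 to 129 CPM in all others (raw library sizes). At P18 this split is that of the code, P20 libraries 1 and 2 hold both kinds, and P20 libraries 3 and 4 are all high. The part of sex in the results was not tested. In bulk RNA, fewer cells that hold a transcript and less of it per cell cannot be told apart.

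Per unit length, Topbp1 was the most abundant of the 10 (median 31.6 TPM over the 14 libraries), followed by Mdc1 (20.6), Atm (16.5), Timeless (14.7), Wee1 (13.5), Clspn (12.6), Tipin (9.72), Chek2 (8.70), Atr (8.24) and Chek1 (2.25). The ranges of all neighbours in this order overlapped, so the order is that of medians. These TPM sum all transcripts of a gene, coding or not, so the order is not one of coding RNA. Protein-coding transcripts held 0% to 46.8% of Timeless TPM and 4.05% to 78.0% of Clspn TPM, but all TPM of Mdc1, Tipin and Wee1. What set the genes apart more was how far they moved. Atm stayed within a 1.87-fold span of CPM over all 14 libraries, Mdc1 within 2.40-fold and Atr within 2.90-fold. Clspn spanned 42.4-fold, Chek1 22.3-fold and Timeless 16.1-fold. Mki67 spanned 378-fold, from 3.76 CPM in P20 WT 4 to 1420 CPM in P20 Irx5KO 4.

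**Figure D1:**
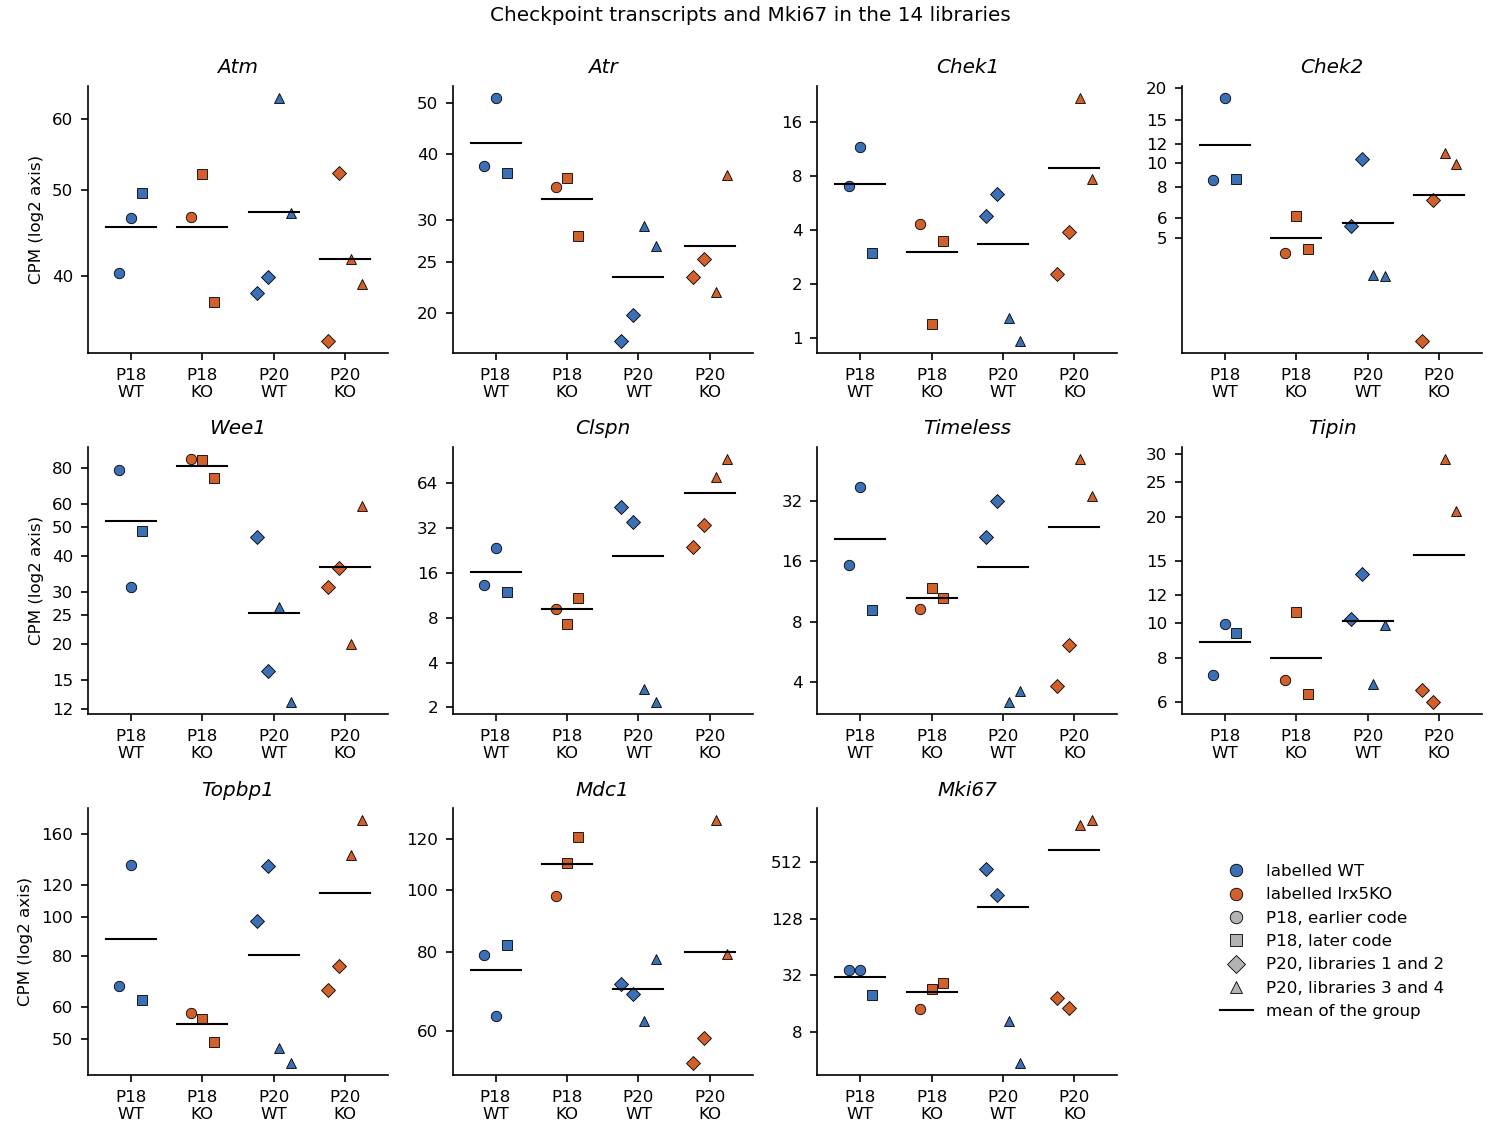
CPM (log2 axis) of the 10 checkpoint genes and Mki67 in each library, by age and labelled genotype, in blue for labelled WT and orange for labelled Irx5KO, with symbols for the 6-digit code and a bar at each group's mean. Clspn, Timeless, Topbp1 and Chek1 are higher in P20 Irx5KO 3 and 4 than in P20 WT 3 and 4, while Atm stays between 33.8 and 63.4 CPM.

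The promoters of 4 of these genes are shown, 2 with and 2 without a match to an E2F-type motif, the element bound by E2F factors at many S-phase genes. Each runs from 250 bases before to 30 bases after the RefSeq start on GRCm38.p6, 5′ to 3′ on the gene's strand, with the match in capitals. Clspn and Topbp1 rose in P20 libraries 3 and 4 and hold the motif, Chek1 rose and holds none, and Atm did not pass there and holds none. Among the windows not shown, Timeless rose and holds none, Chek2 and Mdc1 hold a match and did not pass, and Atr did not pass and holds none. The Chek1 and Timeless windows lie inside the annotated span of their genes, so their lack of a match holds for the RefSeq start used. The windows are chr4:126556730-126557009 (plus strand) for Clspn, chr9:103305077-103305356 (plus) for Topbp1, chr9:36726629-36726908 (minus) for Chek1 and chr9:53536642-53536921 (minus) for Atm.
Clspn: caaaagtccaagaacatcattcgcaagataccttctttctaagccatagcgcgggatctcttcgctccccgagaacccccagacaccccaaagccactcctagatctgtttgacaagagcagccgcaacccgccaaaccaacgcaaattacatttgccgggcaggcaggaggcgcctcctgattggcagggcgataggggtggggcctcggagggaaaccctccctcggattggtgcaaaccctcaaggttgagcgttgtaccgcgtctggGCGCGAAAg
Topbp1: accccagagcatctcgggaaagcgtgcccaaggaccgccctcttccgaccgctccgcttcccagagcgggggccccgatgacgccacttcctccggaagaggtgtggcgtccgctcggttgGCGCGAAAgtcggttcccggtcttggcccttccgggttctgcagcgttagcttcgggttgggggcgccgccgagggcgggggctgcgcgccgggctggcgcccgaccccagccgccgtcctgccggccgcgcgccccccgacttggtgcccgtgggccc
Chek1: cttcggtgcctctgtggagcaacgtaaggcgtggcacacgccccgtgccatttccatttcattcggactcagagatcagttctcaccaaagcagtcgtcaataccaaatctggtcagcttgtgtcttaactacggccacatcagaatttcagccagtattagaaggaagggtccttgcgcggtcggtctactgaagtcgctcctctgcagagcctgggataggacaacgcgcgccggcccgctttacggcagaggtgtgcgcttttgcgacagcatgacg
Atm: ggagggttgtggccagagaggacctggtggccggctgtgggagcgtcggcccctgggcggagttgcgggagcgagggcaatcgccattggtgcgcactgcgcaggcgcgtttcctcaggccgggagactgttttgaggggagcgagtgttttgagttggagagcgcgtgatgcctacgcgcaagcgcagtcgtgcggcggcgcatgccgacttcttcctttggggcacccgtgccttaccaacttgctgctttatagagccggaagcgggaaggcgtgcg
The letters searched, on both strands, were TTTCCCGC, TTTCGCGC, TTTGCCGC, TTTGGCGC and GGCGGGAA, of which the first and last can overlap; they were chosen with these sequences in view. In Clspn the match lay at bases 22 to 29 after the start and in Topbp1 at bases -129 to -122. RefSeq gave a window for 8 of the 10 genes, all but Wee1 and Tipin, and 4 of the 8 held a match: Chek2 (-152 to -145) and Mdc1 (2 overlapping matches within -16 to -8) besides those shown. Of all 32851 windows of this length, 3.65% did. With the letters chosen in view of these sequences, these shares are a description and no test. The plain CCAAT letters were in 4 of the 8 windows (Atm, Chek2, Clspn and Mdc1) and in 36.1% of all windows, and TTTGAA was in none of the 8 and in 17.2% of all. A match is a string of letters and does not show that a factor binds.

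At P20, Clspn, Timeless, Topbp1 and Chek1 were higher in labelled Irx5KO libraries 3 and 4 than in WT 3 and 4. Of the 10 genes, these 4 passed, all higher, by edgeR's quasi-likelihood test with a Benjamini-Hochberg adjusted p under 0.05 over all genes; 4.81% of all genes passed in this comparison, 2.19% higher and 2.62% lower. The median log2 difference of all 10 genes was 1.57, against -0.01 for 10495 well-expressed genes. DESeq2 and limma voom each called 5, adding Tipin, beside 2647 and 1894 of all 24592 genes.

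Clspn, the adaptor through which ATR reaches Chk1 (GRCm38 chr4:126556935-126593903), was at 70.4 and 92.6 CPM in labelled Irx5KO 3 and 4 and at 2.67 and 2.18 CPM in WT 3 and 4. It rose by 5.06 ± 0.43 (SE) on the log2 scale (edgeR adjusted p = 1e-05). The 4 libraries held both the highest and the lowest Clspn values of the series.

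Timeless, its fork-protection partner (chr10:128232065-128252941), was at 51.4 and 33.8 CPM against 3.20 and 3.63 CPM and rose by 3.64 ± 0.50 (edgeR adjusted p = 0.00057). Topbp1, the activator of ATR (chr9:103305215-103350428), was at 142 and 173 CPM against 47.6 and 43.7 CPM and rose by 1.79 ± 0.31 (edgeR adjusted p = 0.0031). Chek1, the effector kinase (chr9:36708482-36727065), was at 21.6 and 7.68 CPM against 1.30 and 0.97 CPM and rose by 3.68 ± 0.88 (edgeR adjusted p = 0.026). The Chek1 values rest on 314 and 139 against 39 and 16 estimated counts. Its call was lost without Irx5KO 3 (log2 2.76, edgeR adjusted p = 0.105), without WT 3 (3.86, 0.196) and without WT 4 (3.44, 0.193).

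The other 6 genes did not pass in libraries 3 and 4. Tipin, which binds Timeless (chr9:64281581-64305424), was at 29.1 and 20.8 CPM against 6.73 and 9.93 CPM (log2 1.58 ± 0.50, edgeR adjusted p = 0.095). Chek2, the effector of ATM (chr5:110839979-110874145), was at 11.004 and 9.89 CPM against 3.57 and 3.51 CPM (1.56 ± 0.72, 0.28). Wee1, the inhibitory kinase of Cdk1 (chr7:110122046-110143286), was at 20.01 and 59.0 CPM against 26.7 and 12.7 CPM, which overlapped (1.00 ± 0.70, 0.56). The scaffold Mdc1 (chr17:35841515-35859670) was at 129 and 79.2 CPM against 62.4 and 77.9 CPM (0.57 ± 0.27, 0.29).

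The apical kinases themselves differed least. Atr (chr9:95857597-95951781) was at 21.9 and 36.5 CPM against 29.3 and 26.8 CPM (log2 0.06 ± 0.32, edgeR adjusted p = 1). Atm (chr9:53439149-53536740) was at 41.7 and 39.2 CPM against 63.4 and 47.1 CPM (-0.45 ± 0.29, 0.48). A p that misses the threshold does not show that these levels were equal. Mki67, in contrast, was at 1253 and 1420 CPM against 10.5 and 3.76 CPM, a rise of 7.53 ± 0.52 (edgeR adjusted p = 7.7e-06). Summed suprabasal markers were at 656 and 535 TPM against 1084 and 540 TPM in these 4 libraries, and their part in the result was not tested.

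In P20 libraries 1 and 2 Timeless was lower in labelled Irx5KO, and the other 9 genes did not pass. There 0.655% of all genes passed by edgeR, 0.138% higher and 0.516% lower, and 1 of the 10 did: Timeless fell by 2.42 ± 0.47 (adjusted p = 0.026), from 21.2 and 32.04 CPM in WT 1 and 2 to 3.83 and 6.10 CPM in labelled Irx5KO 1 and 2. That call was lost without Irx5KO 1 (log2 -2.09, edgeR adjusted p = 0.325), without Irx5KO 2 (-2.79, 0.185) and without WT 2 (-2.09, 0.178), and with limma voom (-2.43, 0.287).

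Mki67 fell by 4.32 ± 0.45 in the same libraries (edgeR adjusted p = 0.00043), from 429 and 228 CPM in WT 1 and 2 to 18.5 and 14.5 CPM. Clspn did not pass: it was at 23.7 and 33.5 CPM in labelled Irx5KO 1 and 2 and at 43.9 and 34.8 CPM in WT 1 and 2 (log2 -0.46 ± 0.36, adjusted p = 0.83). Irx5KO 2 and WT 2 lay close together. Topbp1 was at 66.0 and 75.5 CPM against 97.5 and 133 CPM (-0.70 ± 0.30, edgeR adjusted p = 0.66).

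Tipin was at 6.48 and 6.01 CPM against 10.3 and 13.8 CPM and did not pass (-0.95 ± 0.50, edgeR adjusted p = 0.73). Chek1 was at 2.27 and 3.89 CPM against 4.76 and 6.36 CPM (-0.85 ± 0.80, 0.87), and Chek2 at 1.93 and 7.11 CPM against 5.58 and 10.4 CPM (-0.82 ± 0.70, 0.85). Mdc1 was at 53.6 and 58.5 CPM against 71.1 and 68.8 CPM (-0.32 ± 0.26, 0.85). Atm (0.14 ± 0.29), Atr (0.37 ± 0.32) and Wee1 (0.11 ± 0.69) had small positive differences, with edgeR adjusted p from 0.85 to 0.99. Summed suprabasal markers were at 3244 and 903 TPM in labelled Irx5KO 1 and 2 against 1143 and 767 TPM in WT 1 and 2, and their part was not tested.

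**Figure D2:**
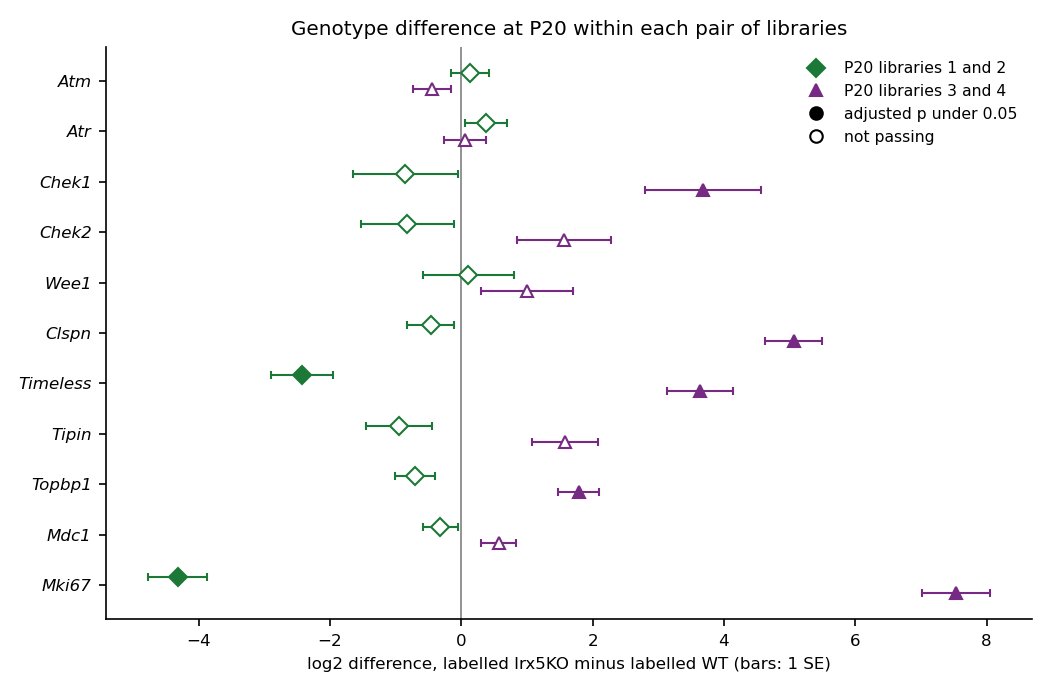
Log2 difference of labelled Irx5KO minus labelled WT at P20, with 1 SE, for the 10 checkpoint genes and Mki67, within libraries 1 and 2 (diamonds) and within libraries 3 and 4 (triangles). Filled symbols have an edgeR adjusted p under 0.05: Timeless and Mki67 are lower in libraries 1 and 2, and Clspn, Timeless, Topbp1, Chek1 and Mki67 are higher in libraries 3 and 4.

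Whether the genotype difference was unequal between the codes was tested as libraries 1 and 2 minus libraries 3 and 4, in which 5.17% of all genes passed by edgeR, 2.49% positive and 2.68% negative. Of the 10 genes, 4 passed, all negative: Timeless by -6.06 ± 0.69 on the log2 scale (adjusted p = 6.6e-05), Clspn by -5.53 ± 0.55 (1.6e-05), Chek1 by -4.53 ± 1.18 (0.035) and Topbp1 by -2.49 ± 0.43 (0.0023). Among these 4, Timeless alone passed in both codes, with opposite signs. Tipin missed the threshold (-2.53 ± 0.71, edgeR adjusted p = 0.0515). Atm (0.59 ± 0.41) and Atr (0.31 ± 0.45) had positive differences that did not pass. The Chek1 call was lost without any 1 of Irx5KO 1, 2 or 3 or WT 2, 3 or 4 of P20 (edgeR adjusted p from 0.0582 to 0.174). In both codes the pair of libraries with more Irx5 transcript was the pair with more Timeless, Clspn, Topbp1, Chek1 and Mki67; whether Irx5, labels or another difference between libraries stands behind this was not tested.

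With both P20 codes pooled, none of the 10 passed by edgeR, none had an unadjusted p under 0.05, and 0% of all genes passed; 1083 genes had an unadjusted p of that size. DESeq2 also called 0 of the 10, with 1 at an unadjusted p under 0.05, and limma voom called 1, Clspn (log2 3.88, adjusted p = 0.0436), beside 104 and 42 of all genes. Under edgeR the pooled Clspn difference was 2.25 ± 1.27 (adjusted p = 0.83). No gene of the 10 had genotype groups without overlap over the 8 libraries, where 1.07% of all genes did (0.37% higher and 0.699% lower).

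Set against Mki67 of the same library, Clspn had its highest ratios in P20 Irx5KO 1 and 2. Its CPM came to 31.9% to 65.5% of Mki67 CPM in the 6 P18 libraries. At P20 it came to 128% and 231% in labelled Irx5KO 1 and 2 but to 10.2% and 15.3% in WT 1 and 2. In libraries 3 and 4 it was 5.62% and 6.52% in labelled Irx5KO and 25.3% and 58.1% in WT. These percentages serve to compare libraries with each other and not Clspn with Mki67, since CPM is not per unit length.

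Timeless had its highest ratios in P18 WT 2 and P20 WT 4: it came to 39.5% to 102% of Mki67 CPM at P18, 20.7% and 42.1% in P20 Irx5KO 1 and 2, 4.94% and 14.1% in WT 1 and 2, 4.11% and 2.38% in Irx5KO 3 and 4, and 30.4% and 96.8% in WT 3 and 4. Atm, which hardly moved itself, ran from 2.76% of Mki67 CPM in P20 Irx5KO 4 to 1255% in P20 WT 4. For Atm and the other genes of small span, the ratio traces Mki67.

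When each library's Mki67 level was put into the fit as an offset, a difference of 0 meant that a gene changed as much as Mki67. In P20 libraries 1 and 2 all 10 genes were higher relative to Mki67 by edgeR, beside 53.3% of all genes tested, with 0.0244% lower. Mki67 itself fell there by 4.32, so a gene that did not change also counts as higher. The median of the 10 was 3.63, against 4.17 for well-expressed genes. Timeless, at 1.72 ± 0.76 (edgeR adjusted p = 0.046), came nearest to Mki67, and Clspn, at 3.81 ± 0.75 (1.4e-06), lay close to the median of well-expressed genes. In libraries 3 and 4 all 10 were lower relative to Mki67, beside 74.9% of all genes, with 0.0122% higher. Mki67 rose there, so a gene that did not change counts as lower. The median of the 10 was -6.36, against -7.89 for well-expressed genes. There Clspn came nearest to Mki67 (-2.74 ± 0.73, edgeR adjusted p = 0.00031), followed by Chek1 (-4.03 ± 1.31) and Timeless (-4.26 ± 0.85), and Atm was farthest (-8.24 ± 0.83).

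As a share of the log2 change of Mki67, Timeless moved by 56.1% in libraries 1 and 2 and by 48.3% in libraries 3 and 4. Clspn moved by 10.7% and 67.2%, Chek1 by 19.7% and 48.9%, Wee1 by -2.54% and 13.3% and Atr by -8.66% and 0.788%. Topbp1 (16.3% and 23.7%), Tipin (21.9% and 21.04%), Chek2 (19.0% and 20.7%) and Mdc1 (7.40% and 7.54%) moved by similar shares in both, and Atm by -3.16% and -5.96%. These shares are descriptions without a test. The relative call of Timeless in libraries 1 and 2 was lost without any 1 of the 6 P18 libraries, P20 Irx5KO 2, 3 or 4 or P20 WT 1 (edgeR adjusted p from 0.0505 to 0.347). Those of Chek1 and Chek2 were lost without Irx5KO 2 (0.129 and 0.263) and without WT 1 (0.113 and 0.0815). All relative tests share the Mki67 values, so their p-values are not independent; with each gene's own spread alone, 9 and 10 of the 10 passed, beside 13368 and 23156 of all 24592 genes.

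**Figure D3:**
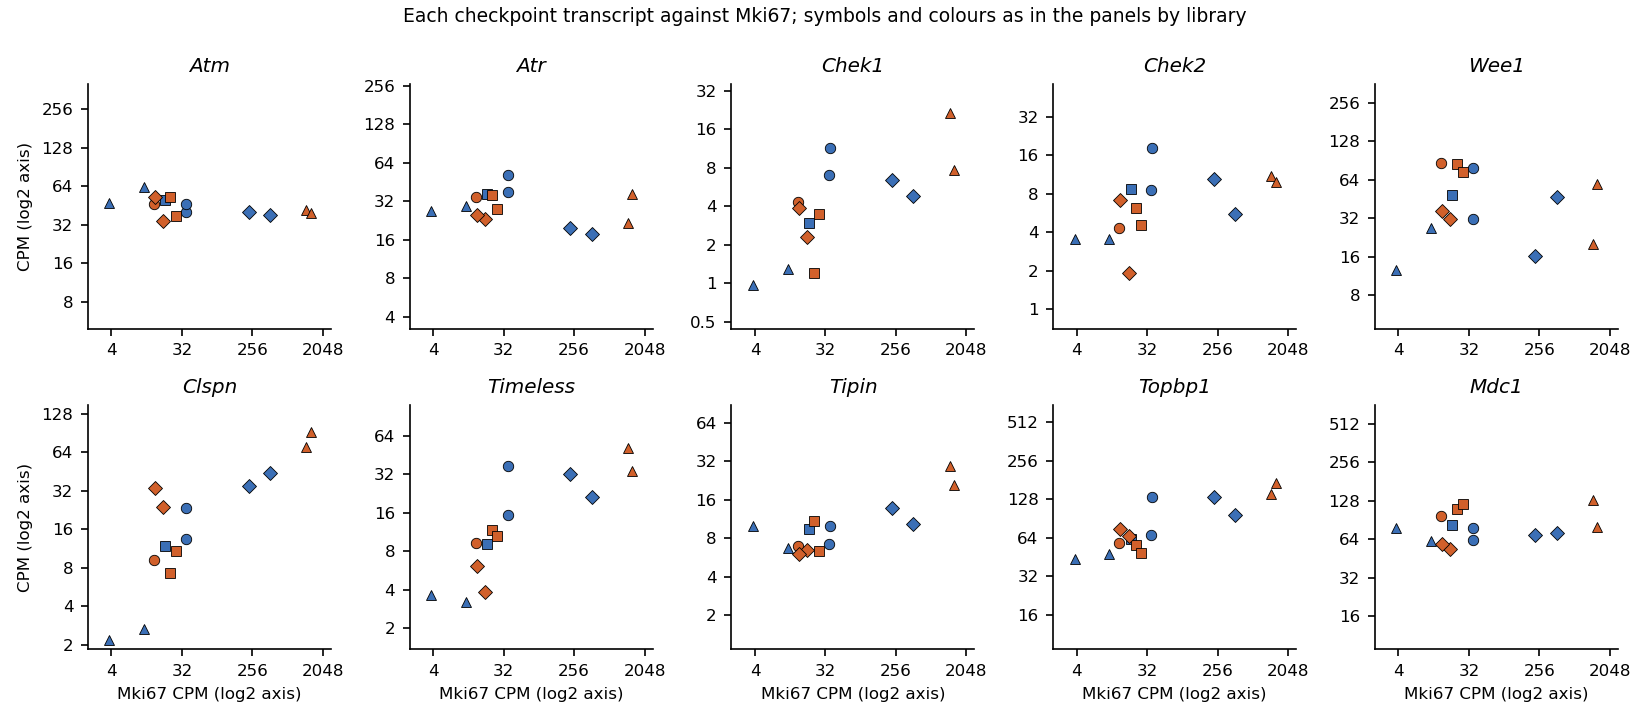
CPM of each checkpoint gene against Mki67 CPM, both on log2 axes, 1 point per library; blue is labelled WT and orange labelled Irx5KO, circles and squares are the earlier and later code at P18, diamonds are P20 libraries 1 and 2 and triangles P20 libraries 3 and 4. Every panel covers the same fold range, so a flat cloud (Atm) and a sloped one (Clspn, Timeless) can be compared; the orange diamonds of Clspn (23.7 and 33.5 CPM) lie above other libraries with similar Mki67.

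At P18 no gene of the 10 passed between the genotypes, by edgeR, DESeq2 or limma voom, and none had an unadjusted p under 0.05 with any of them; by edgeR 0% of all genes passed, and 977 had an unadjusted p of that size. In 5 of the 10 the 3 Irx5KO and 3 WT libraries did not overlap in CPM, which held for 23.4% of all genes tested (3.88% higher and 19.5% lower in Irx5KO). Mdc1 was the one with higher values in Irx5KO, at 97.9, 110 and 121 CPM against 78.9, 63.5 and 82.0 CPM (log2 0.48 ± 0.27, edgeR adjusted p = 0.92). The earlier code holds 1 Irx5KO library against WT 1 and 2, both receptor-rich, and the later code holds WT 3 alone against Irx5KO 2 and 3, so these values have 1 arm without replicates and borrow their spread from the other groups. Within the earlier code the Mdc1 difference was 0.46 ± 0.32 and within the later code 0.50 ± 0.33. Within each code none of the 10 passed by edgeR, where 0.00407% of all genes passed in the earlier code, all lower, and 0% in the later, and with an unreplicated arm no single p is read from them.

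Clspn was at 9.22, 7.25 and 10.8 CPM in P18 Irx5KO against 13.3, 23.6 and 11.8 CPM in WT (log2 -0.69 ± 1.13, edgeR adjusted p = 0.95; -0.999 ± 0.46 within the earlier code and -0.39 ± 0.43 within the later). Topbp1 was at 58.1, 55.9 and 49.1 CPM against 67.7, 134 and 62.4 CPM (-0.52 ± 0.53, 0.93). Chek2 was at 4.34, 6.15 and 4.53 CPM against 8.58, 18.3 and 8.65 CPM (-1.16 ± 0.75, 0.92). Atr was at 34.7, 36.1 and 28.0 CPM against 37.9, 51.2 and 36.8 CPM (-0.28 ± 0.28, 0.925). In each of these 4 genes, and in Timeless and Chek1, WT 2 had the highest value of the 6 P18 libraries, and this was also the library with 5.45% of counts in receptor genes.

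Timeless and Chek1 overlapped between the genotypes. Timeless was at 9.28, 11.8 and 10.5 CPM in P18 Irx5KO against 15.3, 37.4 and 9.14 CPM in WT (-0.61 ± 1.40, edgeR adjusted p = 0.97). Chek1 was at 4.34, 1.21 and 3.47 CPM against 7.06, 11.5 and 2.97 CPM (-0.72 ± 1.00, 0.94). Wee1 was at 85.6, 85.0 and 73.6 CPM against 78.4, 31.2 and 48.5 CPM, overlapping through WT 1 (0.68 ± 0.54, 0.92). Tipin ranged from 6.34 to 10.8 CPM and Atm from 37.4 to 52.1 CPM at this age, with differences of -0.22 ± 0.58 and -0.02 ± 0.26. Relative to Mki67, which was at 14.1, 22.7 and 26.6 CPM against 36.0, 36.5 and 19.6 CPM, none of the 10 passed at P18 by edgeR or limma voom, and none had an unadjusted p under 0.05; 0% of all genes passed.

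Between ages, no gene of the 10 passed by edgeR in WT (0.195% of all genes passed, 0.0691% higher and 0.126% lower) or in labelled Irx5KO (1.57%, 0.61% higher and 0.96% lower), with 2 and 3 at an unadjusted p under 0.05. Age and code cannot be told apart, since each age has its own codes. Wee1 had lower means at P20 in both genotypes: 52.7 ± 23.9 (SD, n = 3) and 25.5 ± 15.2 (n = 4) CPM in WT, and 81.4 ± 6.8 and 36.7 ± 16.4 CPM in Irx5KO. The differences were -1.05 ± 0.43 (edgeR adjusted p = 0.43) and -1.15 ± 0.43 (0.25). Atr was lower in P20 WT by the point estimate (-0.84 ± 0.27, edgeR adjusted p = 0.26), at 23.4 ± 5.5 CPM (SD, n = 4) after 42.0 ± 8.0 CPM (n = 3). DESeq2 called 0 of the 10 in WT and 1 in Irx5KO, beside 682 and 1388 of all 24592 genes. Limma voom called 6 and 3, beside 14320 and 1281 genes, so its 6 in WT come where most genes passed. For the difference in age between the genotypes, each of the 3 tools called 0 of the 10. Of all 24592 genes, edgeR called 0 there, DESeq2 29 and limma voom 0.

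Clspn differed between ages in libraries whose Mki67 levels overlapped. In labelled Irx5KO it was at 7.25 to 10.8 CPM at P18 and at 23.7 and 33.5 CPM in P20 libraries 1 and 2, while Mki67 was at 14.1 to 26.6 CPM and at 18.5 and 14.5 CPM. Fitted without P20 libraries 3 and 4, in which Irx5 went against the labels, Clspn rose by 1.65 with age in Irx5KO (edgeR adjusted p = 0.0234), the 1 of the 10 to pass where 2.06% of all genes did, and Mki67 had a difference of -0.36 (0.726). In WT without these libraries, where 0.844% of all genes passed, Clspn had a difference of 1.30 (edgeR adjusted p = 0.102) and Mki67 rose by 3.45 (0.000929). The age differences of Clspn in the 2 genotypes had a difference of 0.21 that did not pass (edgeR adjusted p = 1), while that of Mki67 passed (-3.82, 0.0352), as did 0.0942% of all genes. With all 8 P20 libraries, Clspn in Irx5KO differed by 2.60 ± 0.99 and did not pass with edgeR (adjusted p = 0.28), but passed with DESeq2 (0.0271).

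The genes differ in how much of their signal lies in transcripts annotated as protein-coding. All counts of Mdc1, Tipin and Wee1 did, and 90.7% to 100% of those of Atm. For Timeless the coding share ran from 0% to 74.0% of counts (median 29.8%), for Clspn from 24.8% to 92.2% (49.6%), for Topbp1 from 21.9% to 99.3% (69.3%) and for Atr from 34.2% to 86.4% (55.6%). The split is kallisto's model estimate and is uncertain. Much of the other Clspn signal was in Clspn-204, a processed transcript of 687 bases without a coding sequence, with 375 of 822 counts in P20 Irx5KO 1 and 587 of 1119 in Irx5KO 2. Parts of Atr overlap the antisense genes 1700065D16Rik and Gm16794 and a part of Timeless overlaps Gm26847; without a stated strand setting, reads from these cannot be told apart from the gene's own.

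From coding transcripts alone, Clspn was at 12.9 and 14.3 CPM in P20 Irx5KO 1 and 2 against 34.6 and 24.9 CPM in WT 1 and 2 (log2 -1.13, edgeR adjusted p = 0.634). In libraries 3 and 4 coding Clspn was at 61.1 and 85.3 against 0.93 and 0.97 CPM and rose by 6.26 (edgeR adjusted p = 2.3e-05). Topbp1 rose by 1.91 there (0.00039), with 141 and 165 against 42.8 and 38.8 CPM. The P18 WT 2 excess of Topbp1 was not in coding transcripts: at 29.4 CPM that library had the lowest coding Topbp1 of the 14. Coding Timeless was at 14.4 and 25.03 against 2.00 and 1.39 CPM in libraries 3 and 4 and did not pass (3.53, edgeR adjusted p = 0.0887). In libraries 1 and 2 it was at 0 and 0.72 CPM in labelled Irx5KO against 10.4 and 10.2 CPM in WT (-4.83, 0.104). Chek1 did not pass either (2.75 in libraries 3 and 4, edgeR adjusted p = 0.417); its coding count was listed at 0 in P20 Irx5KO 4.

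**Figure D4:**
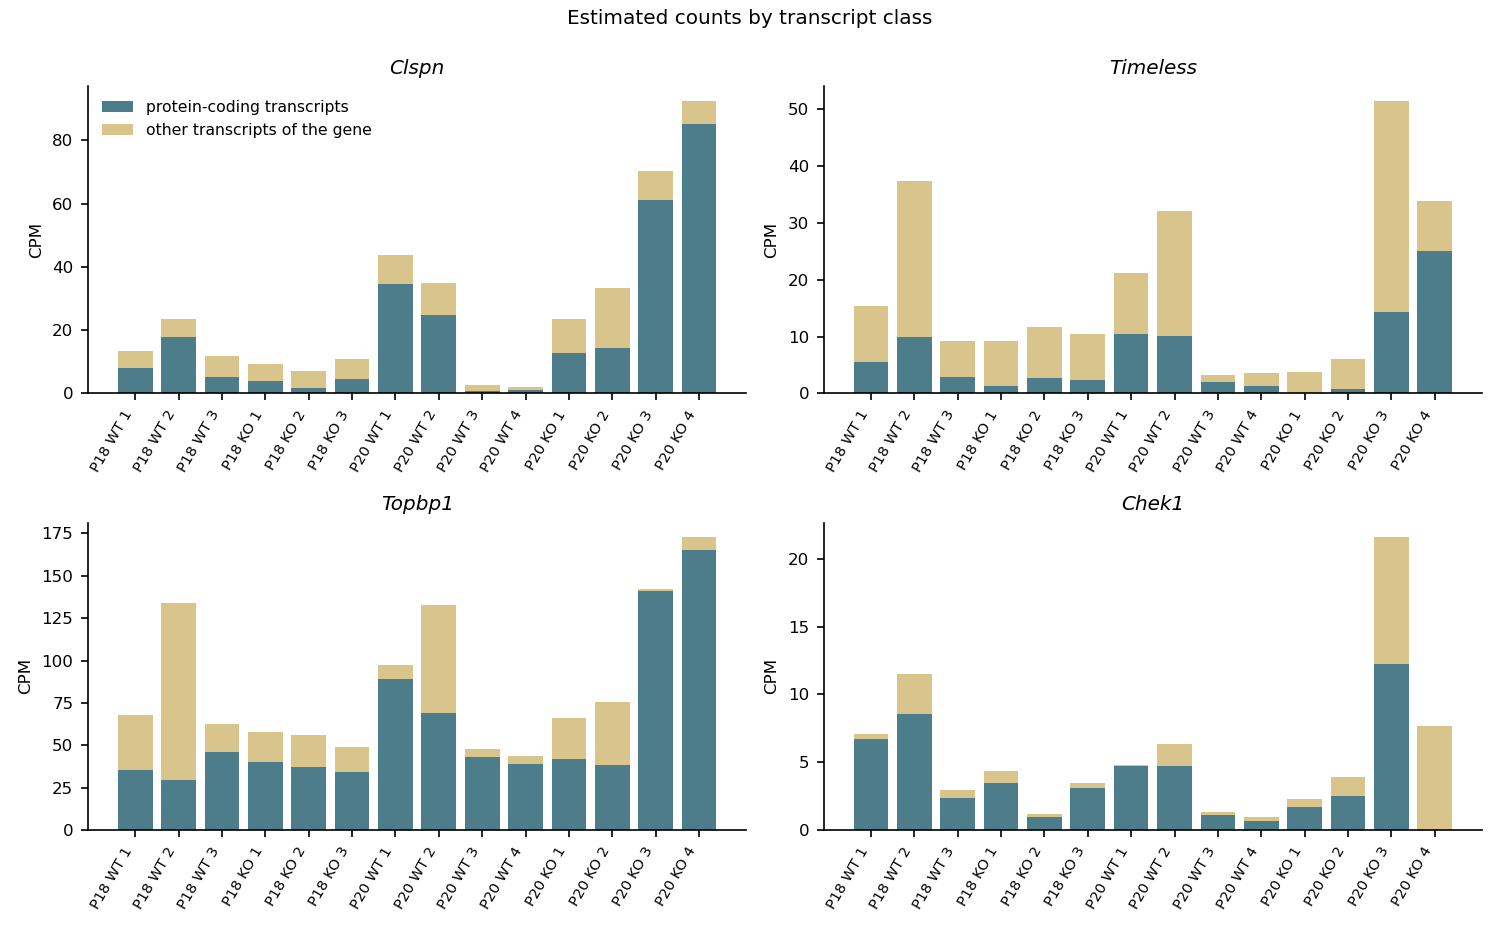
CPM of Clspn, Timeless, Topbp1 and Chek1 in each library (KO stands for Irx5KO), stacked as protein-coding transcripts and all other transcripts of the gene. The coding part of Clspn reaches 61.1 and 85.3 CPM in P20 KO 3 and 4, while in P20 KO 1 and 2 it is 12.9 and 14.3 of 23.7 and 33.5 CPM.

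Genes around the 10 in the same pathway were counted from 5 lists of 70 symbols. In P20 libraries 3 and 4, 3 of 12 genes of ATR activation passed by edgeR, all higher, with a list median of 0.78. They were Rpa1, a subunit of the protein that coats single-stranded DNA (log2 1.46 ± 0.25), Dna2, a nuclease of end resection (3.67 ± 0.90), and Rhno1, a partner of the checkpoint clamp (1.51 ± 0.38). Of 12 genes of fork protection and remodelling, 5 passed, all higher (median 1.23), among them Wdhd1 of the replisome (2.93 ± 0.59), the helicase Rtel1 (1.59 ± 0.36), and Tonsl (2.66 ± 0.61) and Mms22l (2.74 ± 0.63), which act together at stalled forks.

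Of 15 effectors on the cell cycle, 7 passed, all higher (median 1.08), led by Ccnb1, cyclin B1 (6.14 ± 0.67), its kinase Cdk1 (4.93 ± 0.55), the Cdk1 inhibitor Pkmyt1 (2.93 ± 0.46) and the mitotic kinase Plk1 (6.48 ± 1.04). Double-strand break sensing had 1 of 12, H2afx, the histone variant phosphorylated at breaks (2.51 ± 0.45), with a list median of 0.13. Of 20 p53 target transcripts, 1 passed, and it was lower: Cdkn1a, the Cdk inhibitor p21, fell by 1.91 ± 0.43 (edgeR adjusted p = 0.024). The background for each of these counts is the 4.81% of all genes that passed.

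In P20 libraries 1 and 2, 1 gene of these lists passed by edgeR, Ccnb1, which fell by 2.89 ± 0.57 (adjusted p = 0.027). Cdk1 (-2.20 ± 0.49, edgeR adjusted p = 0.058), Rpa1 (-1.01 ± 0.24, 0.10) and Mms22l (-2.39 ± 0.62, 0.14) had negative differences that did not pass, and Cdkn1a a positive one (1.38 ± 0.42, 0.31). At P18 none of the 5 lists had a gene that passed. Between ages in labelled Irx5KO, Trp53, the gene of p53, rose by 1.31 ± 0.31 (edgeR adjusted p = 0.043). Of 20 p53 targets, 1 passed as higher and 3 as lower in the same comparison. Of all genes, 1.57% passed there, 0.61% higher and 0.96% lower. This comparison included the P20 Irx5KO libraries in which Irx5 went against the labels. Values without them are not given here for Trp53 or the p53 targets, and age and code cannot be told apart. Sesn2, a stress-induced regulator of growth signalling, rose by 1.99 ± 0.40 (edgeR adjusted p = 0.021). Pmaip1, the pro-apoptotic Noxa, fell by 2.71 ± 0.45 (edgeR adjusted p = 0.0096), Plk2 by 1.56 ± 0.33 (0.027) and the death receptor Fas by 1.79 ± 0.41 (0.037). The p53 targets that passed thus moved both ways.

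Over the 14 libraries, the genes whose log2 CPM was most like each checkpoint gene were sought among 9873 well-expressed genes, as a description without a test. The libraries and their scaling are shared by all of these values, and the libraries fall into clusters by Mki67 level, so they are not 14 independent points. For Clspn they were Pclaf (Pearson r = 0.937), Kif4 (0.936) and E2f1 (0.916), and for Timeless Bard1 (0.965), Kif14 (0.957) and Fanca (0.952). For Topbp1 they were Hmmr (0.964), Cip2a (0.962) and Rrm1 (0.958), and for Chek1 Pttg1 (0.960), Rad54l (0.928) and Orc6 (0.926). For Tipin they were Nup155 (0.969), Crispld1 (0.960) and Grb14 (0.952). Those with the highest r for 4 others were Wdr3 for Atm (0.893), Pnpla6 for Atr (0.955), Zfp260 for Chek2 (0.904) and Twsg1 for Mdc1 (0.914).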

How the data were processed

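RNA of 14 bulk libraries was measured. The authors deposited estimated counts and TPM per transcript, made with kallisto 0.46.2 on mm10 per the submitters' processing notes; strand and trimming settings were not given in the sources used here. Transcripts were summed to genes with GENCODE mouse vM21, and 1673 of 118489, holding 1.19% to 2.59% of counts, matched no gene and were left out. No column of per-sample values was left unused (0). The deposited TPM were used only for levels between genes and for markers.

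Gene sums of the deposited estimated counts were rounded and fitted with edgeR 4.0.16 (R 4.3.3) by the quasi-likelihood test, with Benjamini-Hochberg adjustment over all genes tested and a threshold of 0.05. Genes passed edgeR's default expression filter, and library sizes were scaled by TMM over genes with a mean of at least 8 CPM. The within-code differences came from a fit with a separate coefficient for each code and genotype. The pooled P18 and P20 differences and genotype by age came from a fit with code within age as a term. The age differences came from a fit without a code term. Standard errors were derived from the F statistic and are approximate. For the fit relative to Mki67, each library's Mki67 count plus 0.5 was the offset. Alternatives were DESeq2 1.42.0, limma 3.58.1 (voom), other scalings and filters, a replicate block and leaving out libraries. Voom was run with quality weights for the libraries wherever it is named. The fit was tested on simulated data.

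The 10 genes, the lists and the tests were chosen with earlier results of these data known. All 10 genes are named in each comparison, and from each pathway list up to 4 with the smallest p. Claspn was matched by hand to Clspn. Shared replicate numbers were checked at P18. Deviations of same-numbered libraries correlated at 0.366, 0.149 and 0.289, and 6 of 6 libraries correlated best with their own number. P18 WT 2 and Irx5KO 2 lie under different codes, however, so the shared numbers do not establish pairs. The P18 differences given used the code and no pairing, which entered only in the replicate block alternative. Promoter sequences are from RefSeq. The genes most like Wee1 are not reported here.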

Additional observations from a re-analysis of the deposited data

Results flagged for a closer look

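The labelled genotype difference at P20 differed between the libraries 1 and 2 and the libraries 3 and 4, by a test of the difference itself (edgeR's quasi-likelihood test), in 4 of the 10 checkpoint genes, where 5.17% of all genes passed. The log2 difference in libraries 1 and 2 minus that in libraries 3 and 4 was -6.06 for Timeless, -5.53 for Clspn, -4.53 for Chek1 and -2.49 for Topbp1. The Chek1 call was lost without any 1 of P20 Irx5KO 1, 2 or 3 or WT 2, 3 or 4 (edgeR adjusted p from 0.0582 to 0.174), with voom (0.0816) and with a replicate block (0.0811). Irx5 itself differed by -4.37 and Mki67 by -11.85 in the same direction.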

How the results depend on the processing

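Of 2831 values of the checkpoint genes and Mki67 under alternatives, 2765 kept their call, 41 lost it, 22 gained one and 3 reversed; 91 values that did not pass changed sign. Of the 10 genes, the pooled P20 difference called 1 without an expression filter and 1 with voom, beside 209 of 34056 and 42 of 24592 genes. In P20 libraries 1 and 2, 0 were called with voom, 0 from protein-coding transcripts only (an alternative chosen after seeing the data), and 0 to 1 when leaving out a library. In libraries 3 and 4, 2 were called from coding transcripts, beside 1180 of all 24592 genes, and 3 to 4 when leaving out a library. The difference between codes called 3 to 5 when leaving out a library. Age in WT called 6 with voom, which called 14320 of 24592 genes there. Age in Irx5KO called 1 with DESeq2 and 3 with voom, beside 1388 and 1281 of 24592 genes. It called 1 without P20 libraries 3 and 4, beside 568 of 27602 genes. Genotype by age called 1 without a filter, beside 19 of 34056 genes. Relative to Mki67, libraries 1 and 2 called 7 to 10 when leaving out a library. The reversed values were Clspn with age in WT under voom (-1.62), Mki67 in genotype by age without P20 libraries 3 and 4 (-3.82) and Timeless relative to Mki67 in libraries 1 and 2 from coding transcripts (-0.50); the cause was not tested. At P20, 4 of 8 libraries correlated best with their own replicate number (r of pairs 0.0413 to 0.437), so the numbers are only shared. A replicate block called 3 in libraries 3 and 4 and 3 in the difference between codes, beside 988 and 1161 of all genes. It changed no P18 call. Scaling by TMM over all genes moved the median of well-expressed genes by 0.34 at P18, 0.39 for age in WT, -0.36 for genotype by age and 0.20 for the difference between codes. Over all genes, libraries 1 and 2 called 161, and 668 without a filter, 463 with DESeq2 and 32 with voom; libraries 3 and 4 called 1184, and 2100, 2647 and 1894, and 1881 without the receptor-rich libraries. Leaving out 1 library moved these to 29 without P20 Irx5KO 2, 53 without Irx5KO 1, 104 without P20 WT 2 and 255 without P18 WT 1 in libraries 1 and 2, and to 424 without P20 WT 3, 675 without WT 4 and 718 without Irx5KO 4 in libraries 3 and 4. A library left alone in its arm is assumed to vary like the others.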
